A study of Mus musculus with 29 samples.

Results

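The G2 and mitosis genes are 40 genes whose products carry a cell from the end of DNA replication through chromosome segregation and cell division. They were followed here in blood stem and progenitor cells from the bone marrow of Dnmt3a-mutant and control mice. The members were fixed by name (mitotic kinases, kinetochore, spindle and cytokinesis genes) and not by a cutoff on a measured value. They were chosen with earlier results of these data known. All 40 were found among the 38924 gene identifiers of the count table, with 1 identifier each, and every one had a count in all 29 libraries. All 40 also passed the filter on low counts in each fit, so no member is missing from any count below.

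The cells came from the bone marrow of C57BL/6 mice and are labelled as LT-HSC and ST-HSC (long-term and short-term haematopoietic stem cells), MPP3 (a multipotent progenitor biased to the myeloid lineages) and MPP4 (one biased to the lymphoid lineages). Libraries of polyA RNA were sequenced in bulk. The groups were 3 mutant and 4 control LT-HSC libraries, 4 mutant and 3 control ST-HSC libraries, 4 mutant and 3 control MPP3 libraries, and 4 mutant and 4 control MPP4 libraries. Mutant mice are labelled only as Dnmt3a mutant, Dnmt3a being a DNA methyltransferase, and the allele, the Cre driver and the sort gates are not given in the sources used here. All animals, controls included, were young mice 6 weeks after pIpC, an interferon-inducing RNA analogue used to switch on interferon-responsive Cre genes. For mutant MPP3 the design text counts 3 samples, but 4 are listed, and each of these 4 entered the fits. Nothing in the labels says that replicates came from separate mice, so p-values measure only the spread between these libraries.

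Mitosis begins when cyclin A and cyclin B switch on the kinase CDK1, helped by the phosphatase CDC25C and by the transcription factor FOXM1, which drives many of the other members. Polo and aurora kinases build the spindle, the BUB and MAD proteins hold back anaphase until every kinetochore is attached, and CDC20 with the anaphase-promoting complex then releases separase. Because the transcripts of these genes are made in G2 and mitosis and are low in resting cells, they are widely used as a readout of cycling cells. In the marrow, most LT-HSC are in a resting state, and multipotent progenitors divide more often. In a bulk library, fewer cycling cells and less of these transcripts in each cell cannot be told apart.

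Many G2 and mitosis genes of mammals share a promoter layout in which a CHR element (TTTGAA, read on either strand) lies close to the start and CCAAT boxes lie upstream of it. In mammals, CHR elements are bound by the DREAM complex in resting cells and by MuvB with B-MYB and FOXM1 in cycling cells, and CCAAT boxes by NF-Y. Of the 40 members, 33 matched a RefSeq start window (GRCm38.p6). Cdc25c, Kif20a, Foxm1, Ccna2, Incenp, Aurkb and Tpx2 did not. In the 250 bases before the start, 14 of the 33 members (42.4%) held TTTGAA or its reverse complement TTCAAA, against 18.3% of all 27025 genes with a window. CCAAT or its reverse complement ATTGG stood in 25 of 33 (75.8%), against 37.5% of all genes, and at least 2 such boxes in 16 of 33 (48.5%), against 11.5%. Both motifs together were found in 12 of 33 members (36.4%) and in 6.45% of all genes. A related CHR form, TTCGAA, was present in 2 members (6.06%) and in 1.55% of all genes. These shares describe letters in a window and were not tested.

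The last 130 bases before the start are shown for 9 members, 5′ to 3′ on the coding strand and ending at the base before the start, with these CHR and CCAAT letters in capitals on either strand, the TTCGAA form included. Cdk1, Cdc20, Top2a, Kif11, Espl1 and Ube2c show CHR letters near the start with CCAAT letters upstream of the nearest match. Ccnb2 shows 3 evenly placed CCAAT boxes and no TTTGAA in this stretch. Mki67 shows 2 TTTGAA matches, and Birc5 has none of these letters. The stretches are chr10:69352913-69353042 (minus strand) for Cdk1, chr4:118437344-118437473 (minus) for Cdc20, chr11:99024190-99024319 (minus) for Top2a and chr19:37376252-37376381 (plus) for Kif11. Those of Espl1, Ube2c and Ccnb2 are chr15:102296163-102296292 (plus), chr2:164769799-164769928 (plus) and chr9:70421555-70421684 (minus). Those of Mki67 and Birc5 are chr7:135716380-135716509 (minus) and chr11:117849107-117849236 (plus).
Cdk1: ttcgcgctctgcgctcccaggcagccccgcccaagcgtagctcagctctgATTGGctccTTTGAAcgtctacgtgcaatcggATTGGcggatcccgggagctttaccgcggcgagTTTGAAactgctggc
Cdc20: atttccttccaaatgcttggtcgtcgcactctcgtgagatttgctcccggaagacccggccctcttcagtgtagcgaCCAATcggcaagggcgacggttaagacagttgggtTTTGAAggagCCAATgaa
Top2a: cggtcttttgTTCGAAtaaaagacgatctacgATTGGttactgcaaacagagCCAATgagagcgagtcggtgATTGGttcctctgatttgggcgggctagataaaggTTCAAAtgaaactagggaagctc
Kif11: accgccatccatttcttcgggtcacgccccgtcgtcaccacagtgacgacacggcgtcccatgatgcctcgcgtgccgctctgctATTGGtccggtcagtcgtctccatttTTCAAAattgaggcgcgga
Espl1: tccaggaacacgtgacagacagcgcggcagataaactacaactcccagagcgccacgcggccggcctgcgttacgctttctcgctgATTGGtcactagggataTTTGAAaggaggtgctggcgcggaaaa
Ube2c: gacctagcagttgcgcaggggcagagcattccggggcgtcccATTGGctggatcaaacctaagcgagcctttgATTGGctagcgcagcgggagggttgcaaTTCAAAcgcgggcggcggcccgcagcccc
Ccnb2: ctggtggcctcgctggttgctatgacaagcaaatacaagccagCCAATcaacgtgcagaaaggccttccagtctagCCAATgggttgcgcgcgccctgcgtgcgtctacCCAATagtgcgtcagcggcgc
Mki67: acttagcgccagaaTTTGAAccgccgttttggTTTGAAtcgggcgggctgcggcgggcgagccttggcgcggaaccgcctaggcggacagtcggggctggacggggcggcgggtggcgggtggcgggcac
Birc5: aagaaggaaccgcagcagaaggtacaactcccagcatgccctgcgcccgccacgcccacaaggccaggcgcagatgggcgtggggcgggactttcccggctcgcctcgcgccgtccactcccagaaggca
In Cdk1 the CHR letters begin 71 and 15 bases before the start, in Cdc20 18, in Kif11 19, in Top2a 23, in Espl1 27 and in Ube2c 29 bases before it. The 3 CCAAT boxes of Ccnb2 begin 87, 54 and 21 bases before the start.

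The libraries held 6133994 to 10374672 counts (median 8154515), and 3 counts, the limit that a count of 0 allows, equal 0.289 to 0.489 CPM (each library's counts divided by its TMM-corrected total). PCR copies are not independent molecules, so this limit covers counting error only. Mitochondrial rRNA took 13.41% to 31.24% of the counts, with its lowest share in an MPP3 library and its highest in an MPP4 library. Dnmt3a ran from 92.3 to 220 CPM over the mutant groups and from 81.7 to 166 CPM over the control groups, overlapping in every population (mutant differences of 0.065 in LT-HSC, -0.066 in ST-HSC, 0.19 for MPP3 and 0.22 for MPP4, none called by edgeR), and with the allele not given its level does not check the labels. Several libraries stand apart. S100a8, a neutrophil transcript, was at 2254, 582 and 348.5 CPM in control LT-HSC replicates 1, 2 and 3 and at 114.9 CPM in mutant MPP3 replicate 2, and at most 100 CPM in the other 25. Control LT-HSC replicate 1 also had 21751 CPM summed over 10 erythroid genes, where the lowest mutant LT-HSC library had 811 CPM. Slamf1, the gene of the LT-HSC marker CD150, had a median of 1.59 CPM in ST-HSC and 29.7 CPM in LT-HSC, but mutant ST-HSC replicate 2 had 401 CPM, against 0.764 to 2.14 CPM in the other ST-HSC libraries. Flt3 was highest in MPP4 (381 to 460 CPM, against at most 207 CPM elsewhere), and Cd48 was at 40.1 CPM or more in every MPP3 and MPP4 library, against at most 24.7 CPM in ST-HSC and LT-HSC.

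The level of the members depended first on the gene. Per kilobase of exon, Mki67 (Ki-67, which coats mitotic chromosomes) was the most abundant with a mean of 115 CPM per kb over the 29 libraries. Top2a (topoisomerase IIα, which untangles sister chromatids) followed with 50.3, Ccnb2 (cyclin B2) with 48.0 and Ube2c (the E2 enzyme of the anaphase-promoting complex) with 39.6 CPM per kb. The lowest were Melk (3.57), Iqgap3 (2.57) and Cdc25c (1.69 CPM per kb). Mki67 alone made up 24.0% to 46.0% of the summed CPM of the members.

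The level depended next on the population. The mean of both genotypes was lowest in ST-HSC for all 40 members, highest in MPP3 for 35 and highest in MPP4 for the other 5 (Top2a, Ckap2, Kif23, Cenpf and Ndc80). For 32 members the order from high to low was MPP3, MPP4, LT-HSC, ST-HSC. Summed over the 40 members, LT-HSC libraries had 2869 to 6753 CPM (median 3580), ST-HSC libraries 1346 to 2422 CPM (median 1948), MPP3 libraries 4427 to 5544 CPM (median 5077) and MPP4 libraries 3377 to 4905 CPM (median 4383). The ST-HSC sums lay below every other library, while the sums of MPP3, MPP4 and LT-HSC overlapped. The single LT-HSC sum above all MPP3 libraries, 6753 CPM, was control LT-HSC replicate 1, in which Mki67 supplied 46.0% of it.

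**Figure D1:**
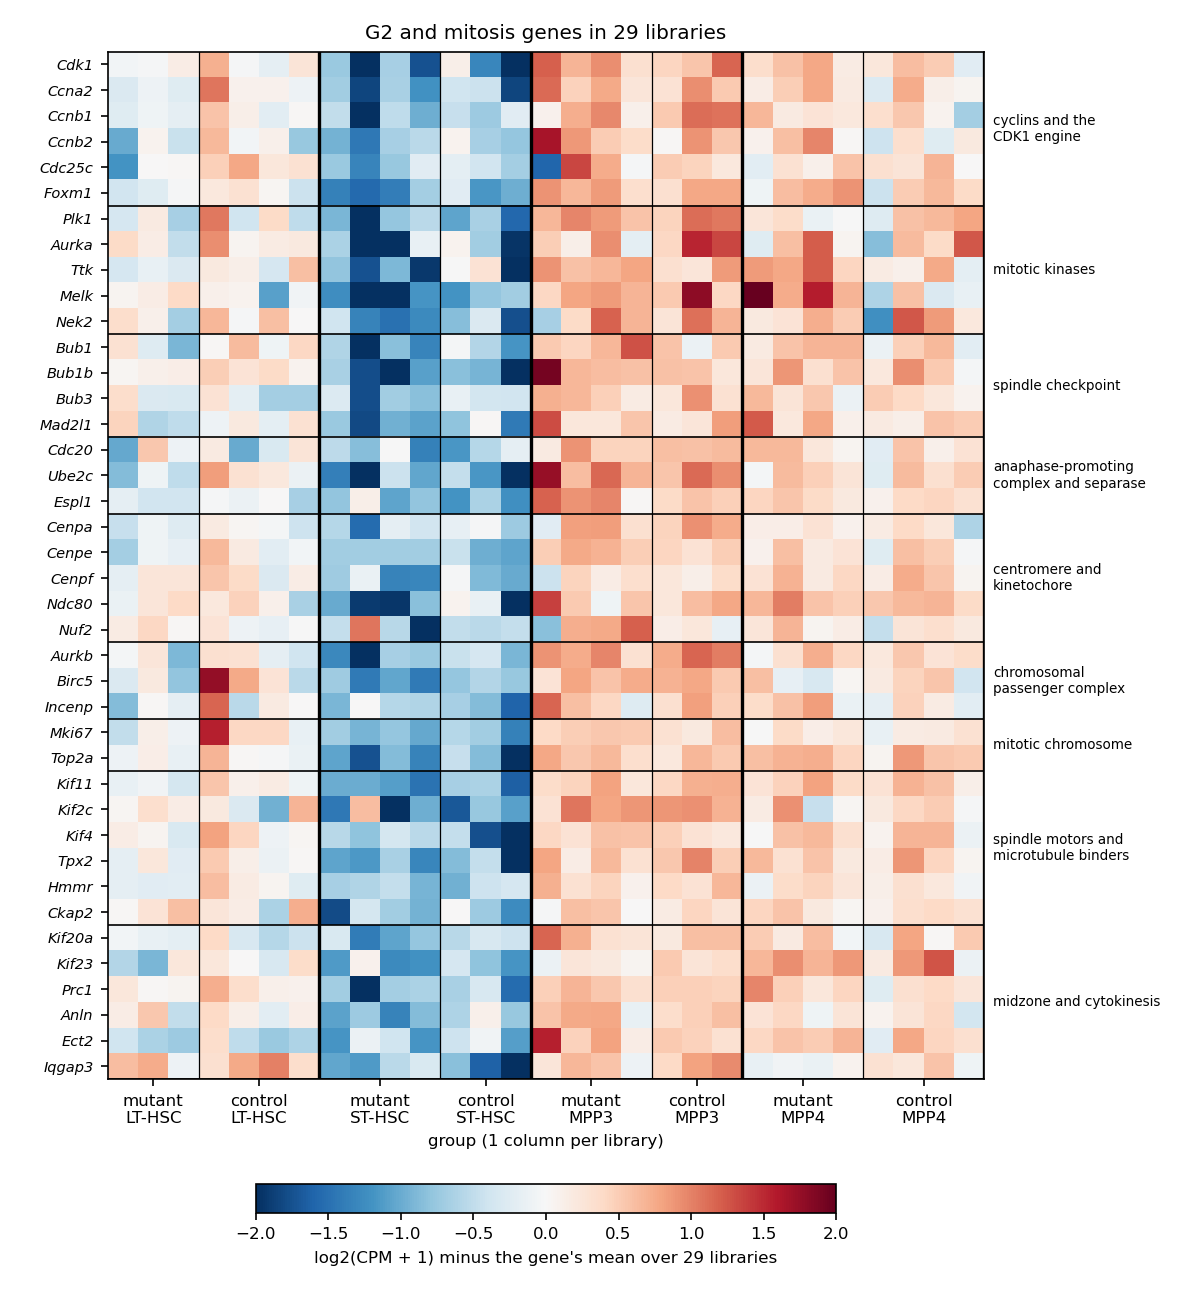
Heat map of the 40 members (rows, by role) in the 29 libraries (columns, by group, mutant left of control in each population). Colour is log2(CPM + 1) minus the gene's mean over all libraries, saturating at 2 units either way. The 7 ST-HSC columns are blue in nearly every row and the MPP3 columns mostly red.

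The comparison of MPP3 with ST-HSC asks how the members differ between a progenitor and the stem cell pool above it. MPP3 was higher in all 40 members, with a median of 1.45 on the log2 scale (2.72-fold), and 39 of 40 passed the test (edgeR's quasi-likelihood test over 15915 genes, Benjamini-Hochberg adjusted p under 0.05). Of all genes tested, 10.5% passed in either direction and 5.91% were higher in MPP3, and the median over all genes was -0.035. In 24 members every MPP3 library lay above every ST-HSC library, which held for 2.04% of all genes. The exception was Nuf2, a kinetochore subunit, at 0.69 ± 0.337 (SE, adjusted p = 0.204). Its 62.9 CPM in mutant ST-HSC replicate 2, the library high in Slamf1, stood against 3.97 to 21.0 CPM in the other ST-HSC libraries. In MPP3 it ran from 16.1 to 68.9 CPM.

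The spindle motor Kif11 (Eg5, which slides spindle poles apart, chr19:37376403-37421859) had the smallest p-value of the members. It ran from 243 to 360 CPM (median 280) in MPP3 and from 66.1 to 133 CPM (median 103) in ST-HSC, without overlap. The log2 difference was 1.57 ± 0.158 (2.98-fold, adjusted p = 8.78e-07 with edgeR). Top2a ran from 463 to 684 CPM (median 582) in MPP3 and from 83.7 to 293 CPM (median 193) in ST-HSC, a difference of 1.64 ± 0.198 (3.12-fold, adjusted p = 3.73e-06). Foxm1 had 97.7 to 146 CPM in MPP3 (median 134) and 26.0 to 66.6 CPM in ST-HSC (median 34.3), a difference of 1.66 ± 0.200. These 3 genes separated the populations completely.

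Ube2c showed a wider gap, with 126 to 288 CPM in MPP3 (median 164) and 14.6 to 63.0 CPM in ST-HSC (median 37.6), 4.51-fold. Bub1b (BUBR1, which inhibits CDC20 until kinetochores attach) had 59.2 to 194 CPM in MPP3 (median 76.5) and 7.76 to 31.7 CPM in ST-HSC (median 23.2), 4.33-fold. Tpx2, which targets aurora A to the spindle, had 96.8 to 174 CPM in MPP3 (median 126) and 20.7 to 62.0 CPM in ST-HSC (median 41.1), 3.07-fold. Cenpe, a kinetochore motor, was at 133 to 184 CPM in MPP3 (median 153) and 52.1 to 79.3 CPM in ST-HSC (median 66.8), 2.40-fold. The lowest MPP3 library was above the highest ST-HSC library in each of these 4.

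Espl1 (separase, which cuts cohesin) was the one among the 8 smallest p-values whose libraries overlapped. It had 42.3 to 95.3 CPM in MPP3 (median 62.2) and 17.3 to 45.6 CPM in ST-HSC (median 23.7), and the 45.6 CPM came from mutant ST-HSC replicate 2. Mki67 had 1219 to 1622 CPM in MPP3 (median 1492) and 414 to 714 CPM in ST-HSC (median 620), 2.42-fold without overlap.

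Every role class moved together in this comparison. All 6 genes of the cyclin and CDK1 class rose, with a median of 1.5, as did all 5 mitotic kinases, with a median of 1.77. Plk1, the polo kinase with the highest level in that class, rose by 1.91 ± 0.267. All 4 spindle checkpoint genes, all 3 of the anaphase-promoting complex and separase, and all 3 of the chromosomal passenger complex rose. Within the passenger complex, which corrects faulty attachments, Aurkb (aurora B) rose by 1.79 ± 0.282. All 6 spindle motors and microtubule binders and all 6 midzone and cytokinesis genes also rose. Kif20a, a midzone kinesin, rose by 1.22 ± 0.212, but 29.3% of its exon bases overlap Cdc23 on the other strand and whether the counting used strand is not stated in the labels. Cdc23 itself differed by 0.48 (adjusted p = 0.116). Overlap with a gene on the other strand also covered 22.8% of exon bases in Ube2c (Tnnc2) and 15.1% in Kif4 (Pdzd11). It covered 12.7% in Cdc25c (Gm3550), 12.5% in Ccna2 (Exosc9), 11.1% in Prc1 (Rccd1) and 2.84% in Cdc20 (Elovl1). Tnnc2 had 5 counts over all libraries. The centromere and kinetochore class had 4 of 5 past the threshold, with the lowest class median, 1.05.

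MPP4 gave much the same contrast with ST-HSC. All 40 members were higher in MPP4, with a median of 1.24 (2.37-fold), and 37 of 40 passed edgeR's test, where 6.74% of all genes passed in either direction and 3.22% were higher in MPP4. In 21 members the libraries did not overlap, against 1.17% of all genes. Cenpa, the centromeric histone H3 variant (0.56 ± 0.199, adjusted p = 0.0924), Cdc25c (0.95 ± 0.356, adjusted p = 0.115) and Nuf2 (0.54 ± 0.326, adjusted p = 0.389) did not pass.

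Kif11 again had the smallest p-value, with 225 to 363 CPM in MPP4 (median 277) and 66.1 to 133 CPM in ST-HSC (median 103). Its log2 difference was 1.49 ± 0.154 (adjusted p = 1.62e-07). Top2a had 416 to 731 CPM in MPP4 (median 600) and 83.7 to 293 CPM in ST-HSC (median 193), 3.21-fold. Tpx2 (90.5 to 161 CPM in MPP4, median 112, against a median of 41.1 CPM in ST-HSC) was 2.71-fold higher. None of these 3 overlapped between the populations.

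Melk, a maternal embryonic leucine zipper kinase, was among the lowest members in level and had the largest fold of this comparison, 4.92. It ran from 4.91 to 39.7 CPM (median 13.0) in MPP4 and from 0.621 to 4.61 CPM (median 2.95) in ST-HSC, and the highest ST-HSC library came close to the lowest MPP4 library. Among mutant libraries its means were 23.3 CPM in MPP4 and 1.84 CPM in ST-HSC. Among control libraries they were closer, 7.77 and 3.95 CPM. Kif23, a centralspindlin motor of the midzone, had 51.1 to 135 CPM in MPP4 (median 96) and 22.5 to 58.8 CPM in ST-HSC (median 24.9), 2.81-fold, and the 58.8 CPM came from mutant ST-HSC replicate 2. Bub1b was 3.53-fold, Foxm1 2.72-fold, Cenpe 2.03-fold and Mki67 2.00-fold higher. Mki67 ran from 956 to 1384 CPM in MPP4 (median 1194), above every ST-HSC library.

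ST-HSC was lower than LT-HSC in all 40 members. The median was -0.90 on the log2 scale (1.87-fold lower), against 0.020 over all 15915 genes tested. Of the members, 20 passed edgeR's test and all 20 were lower in ST-HSC, where 1.39% of all genes passed in either direction and 0.779% were lower in ST-HSC. In 10 members every ST-HSC library lay below every LT-HSC library, against 0.478% of all genes.

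Iqgap3, a scaffold that binds small GTPases at the cell cortex (chr3:88081971-88121048), had the largest difference. It had 3.81 to 20.7 CPM in ST-HSC (median 12) and 24.1 to 53.1 CPM in LT-HSC (median 40.4), a log2 difference of -1.73 ± 0.238 (adjusted p = 7.11e-05). Kif11 had 66.1 to 133 CPM in ST-HSC (median 103) and 162 to 304 CPM in LT-HSC (median 197), a difference of -1.03 ± 0.156. Mki67 had 414 to 714 CPM in ST-HSC (median 620) and 750 to 3105 CPM in LT-HSC (median 1154), a difference of -1.12 ± 0.181. The ST-HSC and LT-HSC libraries did not overlap in these 3 genes.

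Top2a (83.7 to 293 CPM in ST-HSC, 363 to 646 CPM in LT-HSC) fell by 1.18 ± 0.196 on the log2 scale, and Bub1b (7.76 to 31.7 CPM in ST-HSC, 52.0 to 71.8 CPM in LT-HSC) fell by 1.53 ± 0.275. Tpx2 (20.7 to 62.0 CPM in ST-HSC, 73.8 to 125 CPM in LT-HSC) and the chromosome-bound kinesin Kif4 (8.90 to 36.8 CPM in ST-HSC, 38.1 to 84.0 CPM in LT-HSC) were also separated. Birc5 (survivin, a passenger complex subunit) was the member of the 8 smallest p-values that overlapped, with 12.1 to 22.3 CPM in ST-HSC and 19.2 to 117 CPM in LT-HSC. By role, 5 of 6 spindle motors and microtubule binders, 3 of 6 cyclin and CDK1 genes, 3 of 6 midzone genes, 2 of 5 kinases and 2 of 5 kinetochore genes were called lower, all members of each class being negative. Ect2, the RhoA activator of the cleavage furrow, was nearest to 0 at -0.11 ± 0.242.

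The median ST-HSC difference kept its sign with libraries left out, while the number past the threshold changed. Fewer libraries entered each of those fits. All 40 members were also lower in ST-HSC among the mutant libraries alone (median -0.88, 2 called, where 0.278% of all genes were called) and among the control libraries alone (median -0.83, 1 called, background 0.1%). Without the 4 libraries over 100 CPM of S100a8, 39 of 40 were lower (median -0.78). That fit leaves 1 control LT-HSC library, assumed to vary like the other groups, so its calls are not given. Leaving out mutant LT-HSC replicate 2 gave 11 calls (147 of 16668 over all genes). Leaving out control ST-HSC replicate 3 gave 10 (123 of 16639). Leaving out control LT-HSC replicate 1 gave 15 (197 of 15831), with 39 of 40 members lower (median -0.86). Without mutant ST-HSC replicate 2, the library high in Slamf1, 21 members were called lower in ST-HSC than in LT-HSC (median -0.88), 39 higher in MPP3 than in ST-HSC (median 1.39) and 38 higher in MPP4 than in ST-HSC (median 1.2). Of all 15867 genes tested, the same comparisons then called 214, 1615 and 970 in either direction. Neutrophil genes summed to 109 to 808 CPM in ST-HSC and 52.5 to 12462 CPM in LT-HSC, and erythroid genes to 1369 to 3000 CPM in ST-HSC and 811 to 21751 CPM in LT-HSC, with none of the 10 genes of either list at 0 throughout. Beyond the values without those libraries, the part of these transcripts in the result was not tested.

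**Figure D2:**
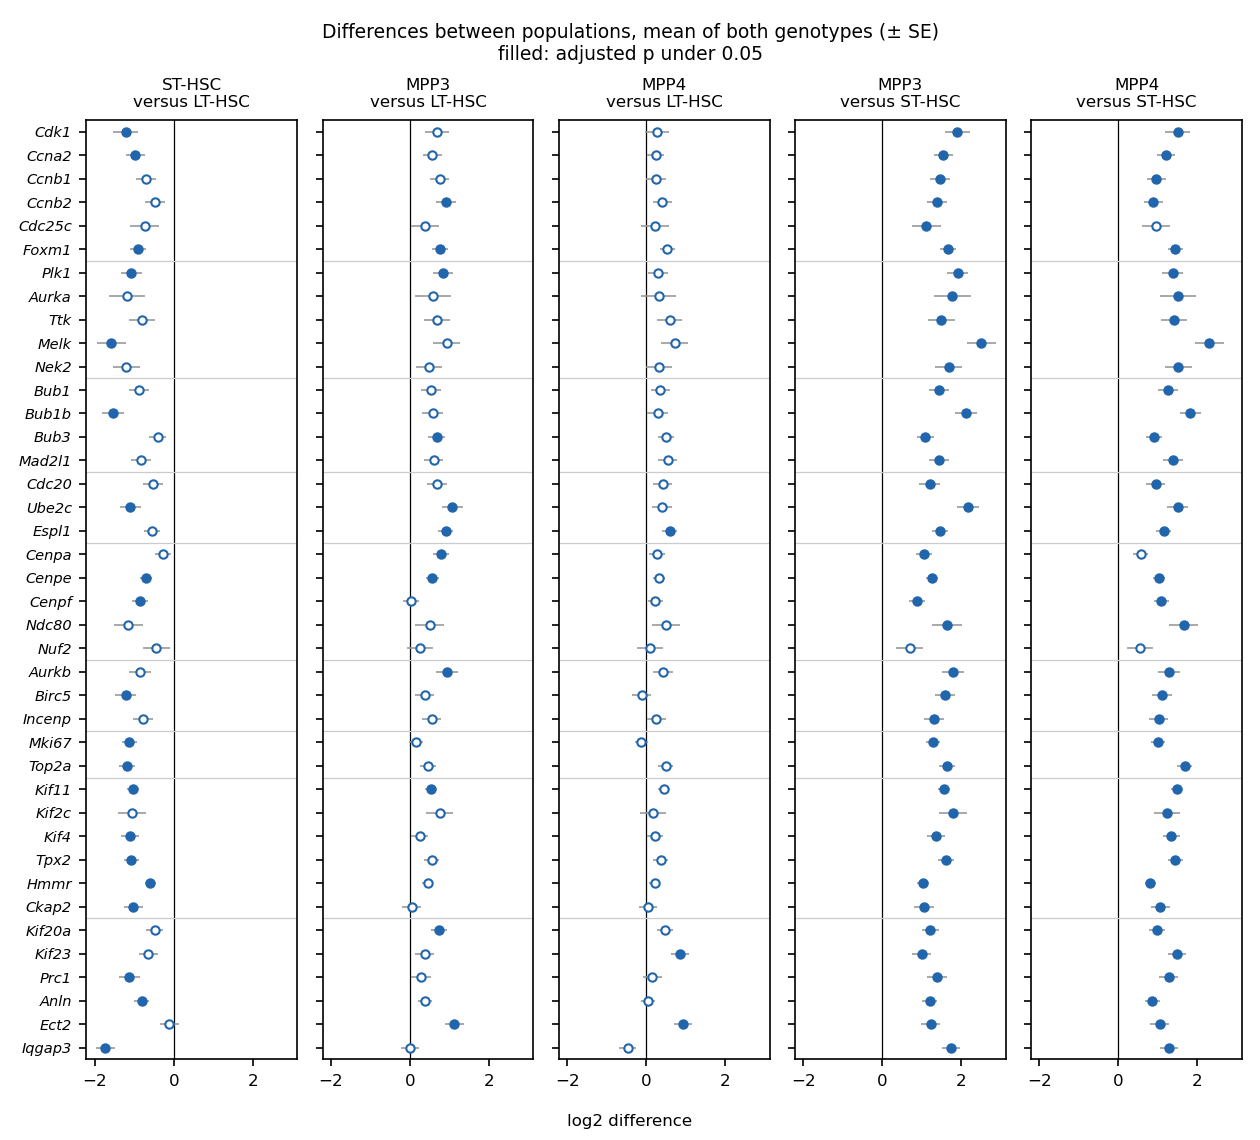
Log2 difference of each member (rows) in 5 comparisons of populations, averaged over genotypes, with bars for 1 SE and filled points where the adjusted p was under 0.05. All 40 points lie left of 0 for ST-HSC versus LT-HSC and right of 0 for MPP3 and MPP4 versus ST-HSC.

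In MPP3 against LT-HSC, all 40 members were higher in MPP3, with a median of 0.57 (1.48-fold), and 12 passed edgeR's test, where 7.40% of all genes passed in either direction and 3.86% were higher in MPP3. The libraries were separated in 3 members, against 1.09% of all genes. Espl1 had 42.3 to 95.3 CPM in MPP3 (median 62.2) and 26.1 to 42.1 CPM in LT-HSC (median 36.8), a difference of 0.91 ± 0.194 (adjusted p = 0.00287). Ect2 had 36.1 to 97.7 CPM in MPP3 (median 45.1) and 19.1 to 41.8 CPM in LT-HSC (median 20.8), a difference of 1.12 ± 0.243. Ube2c had 126 to 288 CPM in MPP3 (median 164) and 46.3 to 152 CPM in LT-HSC (median 80.1), a difference of 1.07 ± 0.265.

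Foxm1 (97.7 to 146 CPM in MPP3, 57.9 to 97.1 CPM in LT-HSC) rose by 0.76 ± 0.195, with no overlap. Cenpa rose by 0.78 ± 0.205, Ccnb2 by 0.91 ± 0.246, Cenpe by 0.57 ± 0.155 and Kif20a by 0.74 ± 0.210, each with overlapping libraries. Kif11, Aurkb, Plk1 and Bub3 made up the 12. Mki67 (0.16, adjusted p over 0.05) and Top2a (0.46) were not among them, and the sign for Mki67 was -0.30 in the control libraries alone. The count fell to 4 without mutant LT-HSC replicate 1 (809 of 16644 over all genes). It was 5 without mutant LT-HSC replicate 3 (714 of 16617) or control MPP3 replicate 2 (872 of 16664). It was 6 without control MPP3 replicate 3 (780 of 16641) and 7 without control LT-HSC replicate 4 (930 of 15850). It rose to 17 without control LT-HSC replicate 1 (1281 of 15831). Mutant libraries alone gave 4 calls (background 2.95%) and control libraries alone 1 (background 1.39%).

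MPP4 was higher than LT-HSC in 37 of 40 members, with a median of 0.32 (1.25-fold), and 3 passed edgeR's test, where 7.18% of all genes passed in either direction and 2.87% were higher in MPP4. That share of the members rests on 3 genes and is close to the either-direction background, though above the share of all genes called higher. The 3 were Ect2 (27.7 to 56.0 CPM in MPP4, 19.1 to 41.8 CPM in LT-HSC), Kif23 (51.1 to 135 CPM in MPP4, 29 to 72.0 CPM in LT-HSC) and Espl1 (44.4 to 62.0 CPM in MPP4, 26.1 to 42.1 CPM in LT-HSC). Their differences were 0.93 ± 0.235, 0.85 ± 0.226 and 0.60 ± 0.187, and only Espl1 was without overlap, which held for 1.31% of all genes in that direction. Top2a differed by 0.50 ± 0.187 (adjusted p = 0.120). Mki67 differed by -0.12, and its sign turned to 0.11 without control LT-HSC replicate 1. The 3 calls became 5 without control LT-HSC replicate 1, and 1 without mutant LT-HSC replicate 1, mutant LT-HSC replicate 2 or control MPP4 replicate 3. The fit without the libraries over 100 CPM of S100a8 leaves 1 control LT-HSC library, so its calls are not given. Mutant libraries alone (background 2.18%) and control libraries alone (background 4.51%) gave 0 calls each.

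Between the progenitors, MPP4 was lower than MPP3 in 36 of 40 members (median -0.24), and 0 passed edgeR's test, where 5.79% of all genes did. Unadjusted p-values were under 0.05 for 7 of 40 members and for 2719 of all 15915 genes, a like share. DESeq2 also called 0 members, and it called 1108 of all 15915 genes. Mutant libraries alone (median -0.18) and control libraries alone (median -0.27) gave 0 calls too, each with a background of 1.44%. The smallest belonged to Ube2c, with 71.7 to 133 CPM in MPP4 and 126 to 288 CPM in MPP3 (-0.67 ± 0.251, adjusted p = 0.129). Cenpa (29.6 to 60.6 CPM in MPP4, 39.0 to 87.1 CPM in MPP3) and Plk1 (25.5 to 53.9 CPM in MPP4, 42.3 to 67.6 CPM in MPP3) came next. Kif23 went the other way, with 51.1 to 135 CPM in MPP4 and 51.1 to 79.9 CPM in MPP3 (0.49 ± 0.224, adjusted p = 0.255).

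Transcripts of antibody-secreting cells, such as Igkc and Jchain, were much higher in MPP3. By population, the 6 genes of that list summed to 7.46 to 1263 CPM in LT-HSC, 18.3 to 3000 CPM in ST-HSC, 3565 to 38240 CPM in MPP3 and 215 to 370 CPM in MPP4, with none at 0 throughout a population. Of the 6, 5 were called higher in MPP3 than in ST-HSC and 6 higher than in LT-HSC, whereas 0 were called higher and 2 lower (Igkc and Jchain) in MPP4 than in ST-HSC. The MPP3 library with the lowest antibody sum, control replicate 2, had a member sum of 5071 CPM, and the one with the highest, mutant replicate 4, had 4585 CPM. Neutrophil-list genes, which include the myeloid progenitor genes Mpo and Elane, summed to 3981 to 10806 CPM in MPP3, 578 to 1196 CPM in MPP4 and 109 to 808 CPM in ST-HSC. The erythroid list was lower in MPP4 (240 to 1134 CPM, against 1369 to 3000 CPM in ST-HSC), with 6 of 10 genes called lower. The sums of 5 B cell genes reached 622 CPM in MPP3, 428 CPM in MPP4, 439 CPM in ST-HSC and 677 CPM in LT-HSC. Of these 5, 4 were called higher in MPP3 than in ST-HSC (median 3.58) and 4 higher in MPP3 than in LT-HSC (median 2.77), so they moved with the members there. T and NK cell genes stayed at or below 172 CPM in every library, macrophage genes at or below 154 CPM and endothelial and stromal genes at or below 469 CPM, and 2 of the 5 T and NK cell genes were at 0 in every MPP4 library. In MPP3 against ST-HSC, 1 of 4 T and NK cell genes tested was called higher (median 2.11) and 0 of 5 macrophage genes were called (median 0.79, all positive). Of the 6 endothelial and stromal genes, 2 were called lower in MPP3 than in ST-HSC (median -0.81), 3 lower in MPP4 than in ST-HSC (median -3.83), and 1, the endothelial cadherin Cdh5, higher in ST-HSC than in LT-HSC (median of the 6 genes 0.57). The part of these transcripts in the member differences was not tested beyond these values.

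The mutation was compared with control within each population, and 0 of 40 members passed edgeR's test in any of the 4. Neither did any other gene (0.0% of the 13922 genes tested in LT-HSC, 13381 tested in ST-HSC, 13572 tested in MPP3 and 13108 tested in MPP4). At an unadjusted p under 0.05, edgeR's test gave 3 members for LT-HSC and 2 for MPP4, with 0 for ST-HSC and 0 for MPP3. Over all genes that threshold was met by 1185 of 13922 for LT-HSC and 413 of 13108 for MPP4, shares close to those of the members. It was met by 493 of 13381 genes for ST-HSC and 302 of 13572 for MPP3. DESeq2 with adjustment called 0 members each time. Over all genes DESeq2 called 292 of 13922 for LT-HSC, 279 of them lower in the mutant. It called 0 of 13381 for ST-HSC, 2 of 13572 for MPP3 and 5 of 13108 for MPP4. The smallest adjusted p of a member with edgeR was 0.329 for LT-HSC and 0.998 or more for the other populations.

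In LT-HSC, 32 of 40 members had negative mutant differences, with a median of -0.27. Ube2c was at 46.3, 80.1 and 59.9 CPM in mutant LT-HSC and at 152, 105, 98.9 and 78.2 CPM in control LT-HSC (-0.82 ± 0.267, adjusted p = 0.329 with edgeR). Mki67 was at 750, 1154 and 984 CPM in mutant LT-HSC and at 3105, 1409, 1417 and 957 CPM in control LT-HSC (-0.85 ± 0.351, adjusted p = 0.510). Birc5 was at 27.7, 39.0 and 19.2 CPM in mutant LT-HSC and at 117, 58.6, 41.4 and 23.2 CPM in control LT-HSC (-1.08 ± 0.467, adjusted p = 0.548). The groups overlapped in all 3, and the control value that stood highest was replicate 1 each time. Cdc25c was the 1 member whose mutant libraries all lay below the controls, as for 3.4% of all genes.

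That library was the highest of its group for 28 of the 40 members. Ccna2 (cyclin A2) was at 258 CPM in it and at 113 to 129 CPM in the other controls, and Top2a was at 374, 439 and 363 CPM in mutant LT-HSC, against 646, 410, 395 and 368 CPM in control LT-HSC. Neutrophil genes summed to 71.4 to 441 CPM in mutant LT-HSC and to 52.5 to 12462 CPM in control LT-HSC, and all 10 had negative mutant differences (median -4.46, 0 called). The same held for all 10 erythroid genes (median -4.13), 5 of 5 B cell genes (median -3.14), all 4 macrophage genes tested (median -2.14), all 4 endothelial and stromal genes tested (median -0.96), all 5 antibody-secreting cell genes tested (median -0.52) and both T and NK cell genes tested (median -0.95), with 0 called. Without the 3 control libraries over 100 CPM of S100a8, 19 of 40 members were positive, the median was -0.0098 and the signs of Mki67 (0.0097), Birc5 (0.30) and Top2a (0.092) turned. That fit has 1 control library, which is assumed to vary like the mutant ones.

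In ST-HSC, 31 of 40 members were negative in the mutant (median -0.25). The 4 smallest p-values were those of Anln (anillin, a scaffold of the contractile ring), Kif4, Iqgap3 and Incenp (the scaffold of the passenger complex), with log2 differences of -0.62, 0.77, 0.84 and 0.53. Anln was at 30.6, 38.8, 25.3 and 35.4 CPM in mutant ST-HSC and at 42.0, 70.2 and 38.1 CPM in control ST-HSC. Kif4 was at 32.1, 26.9, 36.8 and 32.5 CPM in mutant ST-HSC and at 33.9, 13.3 and 8.90 CPM in control ST-HSC. Mki67 was at 656, 556, 620 and 521 CPM in mutant ST-HSC and at 714, 653 and 414 CPM in control ST-HSC, and its estimate of -0.014 changed sign with several libraries left out. Top2a was at 193, 120, 221 and 159 CPM in mutant ST-HSC and at 293, 220 and 83.7 CPM in control ST-HSC. Control replicate 3 was the lowest of its group for 31 of 40 members, so the control range enclosed most mutant values. The column headers carry 1 of 2 numbers whose meaning is not stated. Among libraries with the lower number the median mutant difference was -0.68 in ST-HSC (2 against 2 libraries) and -0.54 in LT-HSC (1 against 2). Among those with the higher number it was 0.35 in ST-HSC (2 against 1) and -0.032 in LT-HSC (2 against 2). In MPP3 it was 0.097 with the lower and 0.035 with the higher number, and in MPP4 0.18 and 0.069.

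In MPP3, 24 of 40 members were positive in the mutant (median 0.052). Aurka (aurora A, the spindle pole kinase) had the smallest p-value, at -0.81 ± 0.398 (adjusted p = 1.00). Bub1b was at 194, 80.9, 78.4 and 76.5 CPM in mutant MPP3 and at 76.3, 75.2 and 59.2 CPM in control MPP3, so the groups did not overlap, as for 2 members in that direction and 2.31% of all genes (Cenpe was the other, and Kif23 lay lower without overlap, as for 2.12% of all genes). The difference was 0.62 ± 0.348 and rested largely on the 194 CPM of replicate 1. Ccnb1 (-0.42) and Bub1 (0.41) had the next smallest p-values. Mki67 was at 1392, 1492, 1539 and 1521 CPM in mutant MPP3 and at 1315, 1219 and 1622 CPM in control MPP3. Top2a was at 684, 582, 630 and 505 CPM in mutant MPP3 and at 463, 640 and 575 CPM in control MPP3. Both genes overlapped.

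In MPP4, 33 of 40 members were positive in the mutant, with a median of 0.088 (1.06-fold). Melk stood out in size, at 39.7, 14.1, 25.9 and 13.5 CPM in mutant MPP4 and at 4.91, 12.6, 6.44 and 7.17 CPM in control MPP4. The groups did not overlap, as for this 1 member and 0.999% of all genes in that direction, and the difference was 1.58 ± 0.421 (3.00-fold, adjusted p = 0.999 with edgeR). The checkpoint kinase Ttk (MPS1) was at 43.8, 41.5, 56.8 and 32.8 CPM in mutant MPP4 and at 26.9, 25.9, 41.2 and 20.8 CPM in control MPP4 (0.61 ± 0.270). Ccnb2 (0.49 ± 0.246) and Prc1, which bundles midzone microtubules (0.37 ± 0.215), followed. Mki67 was at 1058, 1384, 1160 and 1247 CPM in mutant MPP4 and at 956, 1189, 1199 and 1316 CPM in control MPP4. Top2a was at 609, 648, 666 and 541 CPM in mutant MPP4 and at 416, 731, 591 and 581 CPM in control MPP4. Apart from Melk, these groups overlapped.

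**Figure D3:**
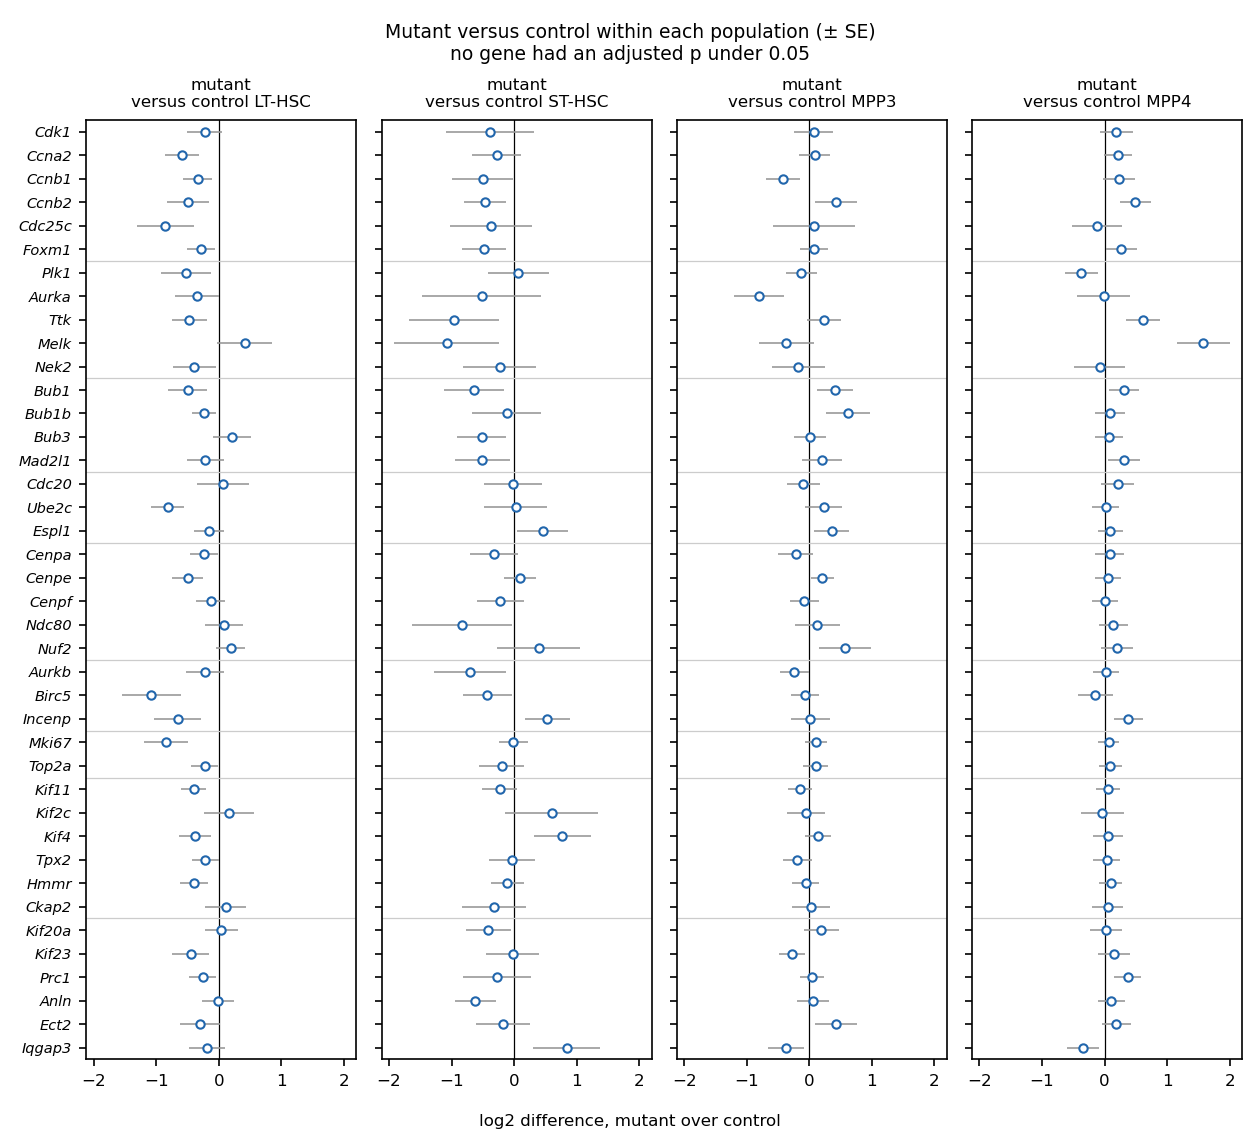
Log2 difference of mutant over control for each member (rows), 1 panel per population, with bars for 1 SE. Open points mark the adjusted p of 0.05 or more that all members had, and Melk in MPP4 (1.58) is the point farthest to the right.

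Averaged over the 4 populations, 10 of 40 members were higher and 30 lower in the mutant (median -0.082, all genes -0.025). Limma called 0 members, as it called 0 of all 15915 genes (0.0%), and 924 of all genes and 1 member, Aurkb, had an unadjusted p under 0.05 (-0.38 ± 0.176, adjusted p = 0.842). Birc5 (-0.39), Aurka (-0.57) and Kif11 (-0.17) had the next smallest p-values, and Mki67 (-0.14) and Top2a (-0.023) lay near 0. The test of whether the mutant difference itself varied between populations, an F test with 3 degrees of freedom in edgeR, called 0 members and 0 of all genes (0.0%). At an unadjusted p under 0.05 it gave 946 of all 15915 genes and 3 of 40 members, Melk (adjusted p = 0.628 with edgeR), Mki67 (adjusted p = 0.801) and Iqgap3 (adjusted p = 0.825). DESeq2 called 0 members and 48 of all 15915 genes in the same test.

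**Figure D4:**
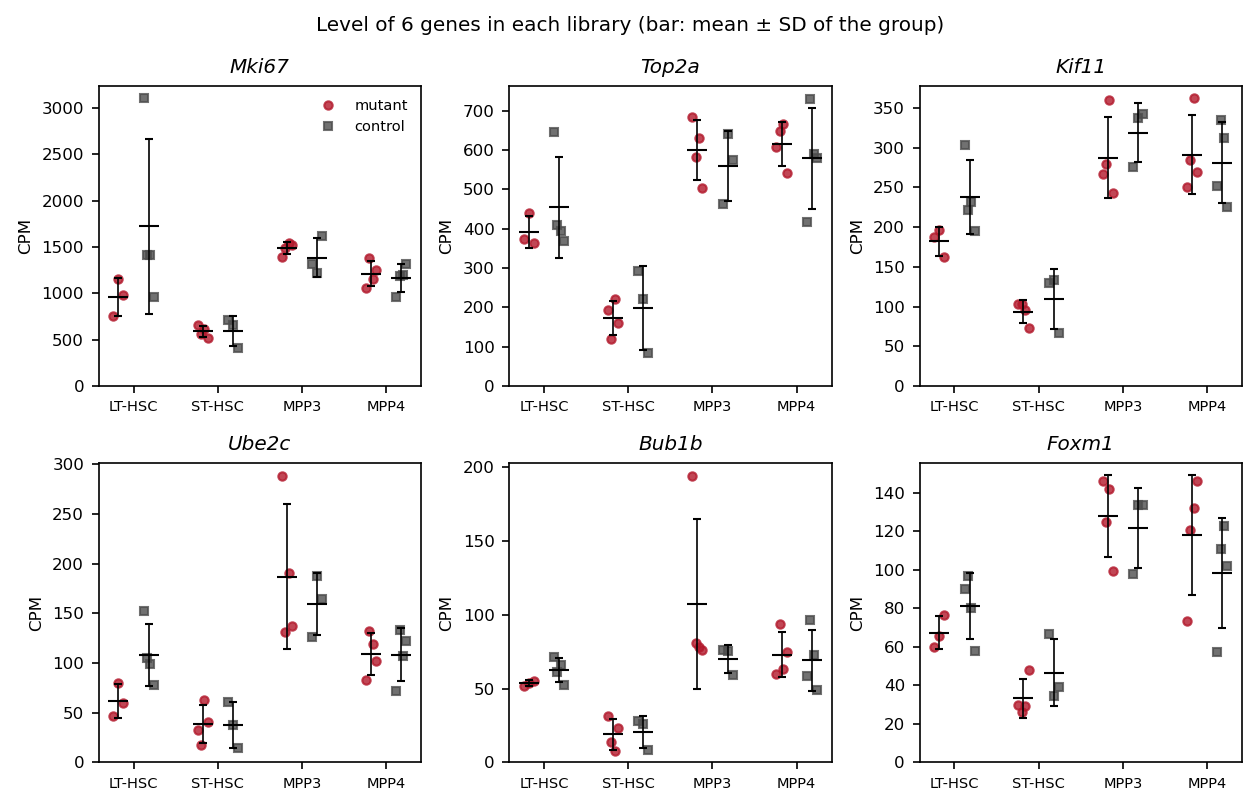
Level in CPM (linear axis from 0) of Mki67, Top2a, Kif11, Ube2c, Bub1b and Foxm1 in every library, with points for libraries and bars for the group mean ± SD, mutant left of control. ST-HSC is lowest in all 6 panels, and control LT-HSC replicate 1 (3105 CPM of Mki67) and mutant MPP3 replicate 1 (194 CPM of Bub1b) stand far above their groups.

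Separate mutant and control fits both placed ST-HSC below MPP3 and MPP4, with fewer calls. MPP3 was higher than ST-HSC in 40 of 40 members in both, with 33 called among mutant libraries (background 4.27%) and 17 among control libraries (background 1.75%). MPP4 was higher than ST-HSC in 40 of 40 members in both, with 26 called among mutant libraries (background 2.24%) and 8 among control libraries (background 1.49%). The median difference of MPP4 from ST-HSC was 1.29 in the mutant libraries and 0.96 in the control libraries. Within the lower and the higher header number, MPP3 exceeded ST-HSC by medians of 1.27 and 1.76, MPP4 exceeded ST-HSC by 1.21 and 1.48, and ST-HSC differed from LT-HSC by -0.94 and -1.18, with all 40 members on the same side each time.

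Other G2 and mitosis genes, a list of 70 not counted among the members and also chosen with earlier results known, took the same course. In MPP3 against ST-HSC, 68 of the 70 were positive (median 1.25), and edgeR called 56 higher and 0 lower. Among those called were Cit, the citron kinase of cytokinesis, at 1.45 ± 0.157, the spindle kinesin Kif15 at 1.76 ± 0.197 and the spindle pole protein Aspm at 1.29 ± 0.151. In MPP4 against ST-HSC, 68 of 70 were positive (median 1.05), with 42 called higher and 1 called lower. In ST-HSC against LT-HSC, 67 of 70 were negative (median -0.78), with 20 called lower, led by Ckap2l (-1.32 ± 0.191). In the mutant comparisons 0 of 70 passed edgeR's test.

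The 38 DNA replication and S phase genes had smaller median differences between these populations. In MPP3 against ST-HSC, 35 of 38 were positive (median 0.65) and 20 were called higher, led by Atad2 at 0.74 ± 0.131. In MPP4 against ST-HSC, 32 of 38 were positive (median 0.51) and 11 were called higher. In ST-HSC against LT-HSC, 33 of 38 were negative (median -0.27) and 1 was called lower, Atad2 (-0.58 ± 0.131, adjusted p = 0.0164 with edgeR). Of 12 genes listed as DREAM and MuvB regulators, 11 were positive in MPP3 against ST-HSC (median 0.58) and 6 were called higher. Mybl2 (B-MYB) had the smallest p-value, at 1.17 ± 0.210, followed by Tfdp1 (0.83 ± 0.166), the partner of E2F factors. None of the 12 passed between ST-HSC and LT-HSC with edgeR.

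Of 11 G1 cyclins and CDK inhibitors tested, 2 were called higher and 1 was called lower in MPP3 than in ST-HSC. Cdk6, a G1 kinase, was higher by 0.94 ± 0.154, and Cdkn1c (p57, a CDK inhibitor of resting stem cells) differed by -3.03 ± 0.910. In MPP4 against LT-HSC, 3 were called higher and 2 lower, with Cdkn1a (p21, a CDK inhibitor) higher by 2.13 ± 0.443. The lists were compared side by side and no test was made between them.

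**Figure D5:**
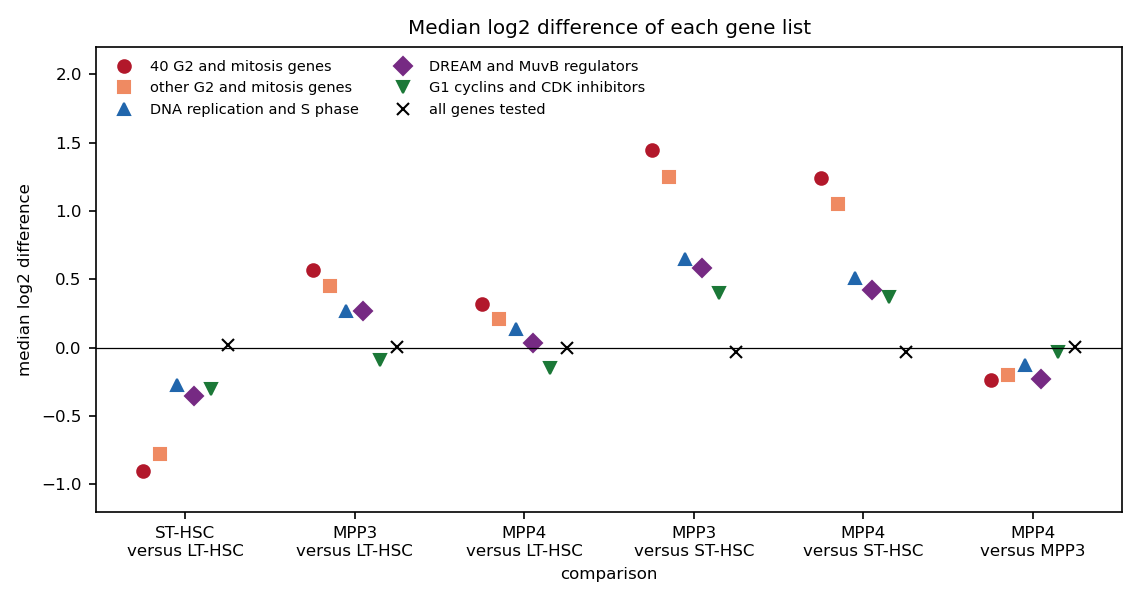
Median log2 difference (vertical axis) of the 40 members, 4 other gene lists and all genes tested in the 6 comparisons of populations (horizontal axis). The members lie farthest from 0 in each comparison, at 1.45 for MPP3 versus ST-HSC, where the 70 other G2 and mitosis genes had 1.25 and the 38 replication genes 0.65.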

How the data were processed

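Bulk RNA-seq of 29 libraries was analysed from 1 gene table. The authors deposited expected counts per gene (whole numbers, not normalized), which were rounded here. The build was GRCm38 and the tools were edgeR 3.5.3, SAMtools 0.1.18, RSEM 1.2.12 and Bowtie2 2.2.0, per the submitters' processing notes, which give them no role or order. Identifiers were matched to GENCODE symbols (37607 of 38924).

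Counts were scaled by TMM and filtered (10 counts, 15 in total). Mutant and control libraries were compared within each population, and populations over both genotypes in 1 fit of 8 groups, by edgeR 4.0.16 quasi-likelihood tests. The mean mutant effect used limma 3.58.1 (voom, with the number in the sample description as a block). P-values were adjusted by Benjamini-Hochberg over all genes tested, with a threshold of 0.05. DESeq2 1.42.0 in R 4.3.3, other scaling, no filter, a replicate block, libraries left out, single genotypes and header numbers were alternatives. Steps were tested on simulated data.

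The members and lists were chosen with earlier results of these data known. Named were up to 8 members past the threshold with the smallest p-values (4 where fewer than 2 passed), Mki67, Top2a, and the most abundant member of each role. In the 39 pairs of libraries that share a description number, deviations correlated between -0.154 and 0.178, and 6 pairs exceeded 0.1. The main edgeR fits therefore did not pair samples by this number. It was a block only in limma and in an alternative of the population comparisons and the population by genotype test. Low correlations do not show that libraries sharing a number are independent. Mutant and control libraries share no description number, and the replicate block of the mutant comparisons was the replicate number in the sample title. The labels do not say that equal title numbers mark a pair. In 13 such pairs of mutant and control libraries, deviations correlated between -0.175 and 0.092.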

Additional observations from a re-analysis of the deposited data

Results flagged for a closer look

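Single libraries far from the others of their group were found in 10 of 200 combinations of a member and a group of 4 libraries. Chance marks about 1 in 20 such groups. In control LT-HSC replicate 1, Ccna2 was at 258 CPM (113 to 129 CPM in the other libraries of the group), Aurka at 26.3 CPM (13.9 to 15.5 CPM), Top2a at 646 CPM (368 to 410 CPM) and Ect2 at 41.8 CPM (19.1 to 22.5 CPM). That library also had the highest neutrophil and erythroid sums of its group, 12462 and 21751 CPM.

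In mutant ST-HSC replicate 2, the library with 401 CPM of Slamf1, Espl1 was at 45.6 CPM (19.6 to 23.8 CPM in the others) and Kif23 at 58.8 CPM (22.5 to 24.9 CPM), while Prc1 was low at 6.12 CPM (42.3 to 44.6 CPM). Nek2, a centrosome kinase, was at 13.4 CPM in mutant ST-HSC replicate 1 (5.75 to 6.85 CPM in the others). Bub1b was at 194 CPM in mutant MPP3 replicate 1 (76.5 to 80.9 CPM), and Ccnb1 at 78.7 CPM in mutant MPP4 replicate 1 (55.8 to 59.4 CPM).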

How the results depend on the processing

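The direction of the member medians between populations was kept in all alternatives run. ST-HSC versus LT-HSC (20 members called) gave 1 in control libraries only, 2 in mutant libraries only, and 10 to 22 with 1 library left out. Over all genes these fits called 15 of 14937, 41 of 14766, and 123 of 16639 to 246 of 15850, where the main fit called 222 of 15915. MPP3 versus LT-HSC (12) gave 1 in control and 4 in mutant libraries only, and 4 to 17 with 1 library left out. The all-gene calls there were 208 of 14937, 436 of 14766, and 714 of 16617 to 1281 of 15831, against 1177 of 15915 in the main fit. MPP4 versus LT-HSC (3) gave 0 in control libraries and in mutant libraries, and 1 to 5 with 1 library left out. Here the all-gene calls were 673 of 14937, 322 of 14766, and 886 of 16617 to 1080 of 15831, against 1142 of 15915 in the main fit. MPP3 versus ST-HSC (39) gave 17 in control libraries and 38 to 39 with 1 left out, and MPP4 versus ST-HSC (37) gave 8 and 34 to 38. All-gene calls for MPP3 versus ST-HSC were 262 of 14937 and 1163 of 16639 to 1757 of 16614 (main fit 1666 of 15915). For MPP4 versus ST-HSC they were 223 of 14937 and 787 of 16639 to 1104 of 16614 (main fit 1073 of 15915). Fewer samples entered each of these fits. With the description number as a block these 5 counts were 18, 11, 2, 38 and 36. That block gave 0 members in MPP4 versus MPP3 and in the population by genotype test. Over all 15915 genes it called 194, 1040, 1083, 1467 and 939, then 834 and 3. With the title number as a block, 0 members were called in each mutant comparison. Over all genes that block called 397 of 13922 in LT-HSC, 0 of 13381 in ST-HSC, 1 of 13572 in MPP3 and 0 of 13108 in MPP4.

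The median mutant difference in LT-HSC was -0.0098 without the S100a8 libraries, and that of MPP4 from ST-HSC 0.96 in control libraries. Signs turned in LT-HSC without those libraries for Mki67 (0.0097), Birc5 (0.3) and Top2a (0.092). In the ST-HSC mutant comparison, Mki67 was 0.075 with the header number as a term and 0.077 with the title number as a block. With 1 library left out, Mki67 ran from -0.22 to 0.15 there and Top2a from -0.57 to 0.19. The ranges with 1 library left out also spanned 0 for Top2a in MPP3 (-0.0095 to 0.21), Mki67 (-0.013 to 0.13) and Top2a (-0.028 to 0.22) in MPP4, and Top2a between MPP4 and MPP3 (-0.016 to 0.11). Mki67 was -0.3 for MPP3 versus LT-HSC in control libraries. For MPP4 versus LT-HSC it was 0.33 in mutant libraries, 0.31 without the S100a8 libraries and -0.22 to 0.11 with 1 left out. Top2a in that comparison was called without control LT-HSC replicate 1 (0.61). The mean mutant effect without the S100a8 libraries was 0.034 for Mki67 and 0.044 for Top2a, and -0.14 to 0.072 for Top2a with 1 left out. The cause was not tested in any of these. Among the alternative values of the 81 named member results, 1706 kept sign and side of the threshold, 85 lost and 1 gained a call, and 27 changed sign.

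Over all genes, mutant versus control LT-HSC (0 called) gave 292 with DESeq2, 189 with no filter and 82 in a fit of all 29 libraries. The same comparison gave 397 with the title number as a block, which the labels do not call a pair, and 0 to 417 with 1 left out. The population by genotype test (0) gave 48 with DESeq2, 24 with no filter and 3 with the description number as a block. Groups of 3 or 4 libraries limit what the mutant comparisons could detect.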
